A study of Mus musculus with 12 samples.

Results

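The alpha-defensin genes of the mouse were taken as every gene whose symbol begins with Defa followed by a digit or hyphen, plus a short list of alpha-defensin genes that carry provisional symbols (AY761184, AY761185, Gm14851, Gm15292 and Gm15293 were present). This gave 44 of the 54232 genes in the count table, of which 27 are annotated as protein coding and 17 as pseudogenes. A further 5 listed provisional symbols are older names of genes that were already counted under a Defa symbol, among them Gm15284 for Defa30 and Gm15299 for Defa27.

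The libraries had been prepared by 3′-biased RNA sequencing from cells of the small intestine sorted as intestinal stem cells (ISCs), each from a single female mouse, to ask how ISCs change with age. There were 12 libraries in 4 groups of 3. The SM6 groups came from wild-type C57/Bl6 mice aged 2 months (young) and 22 months (old), and SM6 names a sort on surface markers. The Lgr5-GFP groups came from Lgr5-EGFP-IRES-CreERT mice of the same ages (CreERT2 in the study's methods), which carry a fluorescent reporter in the stem cell receptor gene Lgr5. The sort given in the labels of every library takes epithelial cells (EPCAM+) without CD31 or CD45 that are medium for CD24, high for CD44 and EPHB2, positive for CD166 and low for GRP78, whereas the study's supplement has the reporter mice sorted by fluorescence. A change of sort, if there was one, went together with the strain and cannot be told apart from it, and SM6 and Lgr5-GFP, called isolations below, are therefore names taken from the titles. The labels name no batch or date. The libraries held between 970472 and 3815425 counts (median 1424340), and the stem cell genes Lgr5 (217 to 356 CPM) and Olfm4 (5397 to 11904 CPM) were present in every library. CPM values of members and single genes, and the sums set beside them, are counts scaled by TMM to an effective library total that is less moved by a few very abundant genes, so they are not shares of the plain total. Sums of the marker lists of other cell types are on plain totals.

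Alpha-defensins are small cationic peptides, called cryptdins in the mouse, that kill bacteria in the lumen of the crypt. In the small intestine they are made by Paneth cells, secretory cells that sit between the stem cells at the base of the crypt, keep the peptides in granules and carry high levels of CD24 at their surface. Each peptide is made as a precursor whose last exon encodes the mature part, and in the mouse the precursor is cut to its active form by the metalloprotease matrilysin, the product of Mmp7. The genes lie in a large array of near-identical copies.

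All 44 members were on chromosome 8 (GRCm38), between positions 19210462 and 21750000. The results turn on a few of them, whose reading frames fall into 2 kinds. To show how alike the members are where the mature peptide is encoded, the last 105 coding bases before the stop codon are given for those with a reading frame of 279 bases, with capitals marking each base that differs from Defa24, the most counted member (chr8:21735270-21735374 for Defa24, chr8:21135396-21135500 for Defa30, chr8:21656534-21656638 for Defa17, chr8:21026316-21026420 for Defa21 and chr8:21163048-21163152 for Defa22, all on the + strand).
Defa24: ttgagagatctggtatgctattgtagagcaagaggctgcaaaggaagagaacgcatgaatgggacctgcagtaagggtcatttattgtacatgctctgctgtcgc
Defa30: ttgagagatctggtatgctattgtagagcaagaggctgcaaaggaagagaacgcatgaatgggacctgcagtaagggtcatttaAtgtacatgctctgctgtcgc
Defa17: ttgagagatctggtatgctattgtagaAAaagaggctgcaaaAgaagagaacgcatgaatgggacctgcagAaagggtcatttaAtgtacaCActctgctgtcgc
Defa21: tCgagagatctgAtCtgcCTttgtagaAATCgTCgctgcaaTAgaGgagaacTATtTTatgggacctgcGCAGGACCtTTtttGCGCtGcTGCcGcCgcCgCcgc
Defa22: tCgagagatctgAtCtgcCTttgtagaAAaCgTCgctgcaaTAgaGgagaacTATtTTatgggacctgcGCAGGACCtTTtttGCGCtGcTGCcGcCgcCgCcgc

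Defa30 differed from Defa24 at 1 base of this stretch and Defa17 at 7, and Defa3 (chr8:21288176-21288280) held the same letters as Defa17. Defa21 and Defa22 stood apart from these, with 41 and 40 differences from Defa24. Their whole transcripts were 99.3% identical to each other.

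AY761184, Gm14851 and Defa29 have a longer reading frame of 348 bases and lie on the opposite strand. RefSeq lists Gm14851 as Defa38 with the older name CRS1C-2, a cryptdin-related sequence. Their last 105 coding bases are given with capitals at each base that differs from AY761184 (chr8:21702631-21702735 for AY761184, chr8:21095077-21095181 for Gm14851 and chr8:21326002-21326106 for Defa29, - strand).
AY761184: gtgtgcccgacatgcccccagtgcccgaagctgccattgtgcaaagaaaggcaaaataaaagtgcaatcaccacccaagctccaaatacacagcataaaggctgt
Gm14851: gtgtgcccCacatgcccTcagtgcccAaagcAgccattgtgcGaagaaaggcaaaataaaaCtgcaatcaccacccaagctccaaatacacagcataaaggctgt
Defa29: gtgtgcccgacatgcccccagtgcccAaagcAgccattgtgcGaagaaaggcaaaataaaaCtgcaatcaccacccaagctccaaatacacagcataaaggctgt

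Gm14851 differed from AY761184 at 6 bases and Defa29 at 4. The likeness of the members bears on how far their counts can be kept apart. A window of 72 bases, the length of the sequenced read, was unique to 1 gene for 90.8% of the positions in the Defa24 transcript, 74.9% in Defa30 and 92.1% in AY761184. For Defa17 and Defa3 it was unique for 8.59% and 12.1% of positions, and for Defa21 and Defa22 for 41.5% and 41.7%. Counts of these last 4 genes are therefore uncertain, since reads that fit several copies may be left out or given to another copy. How such reads were treated is not given in the sources used here. The 3′ reads also depend on the annotated end of a transcript. The coding members have 88 to 163 annotated bases after the stop codon, other than Gm14851 and Defa25, which have 0.

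Promoter sequence was at hand in RefSeq (GRCm38.p6) for 15 members, of which 5 were among the 12 most counted. The 250 bases before the annotated start are shown for 3 of these, so that Defa21, whose levels stood apart, can be set beside a member of each reading frame, with a TATAAA match in capitals (chr8:21134400-21134649 on the + strand for Defa30, chr8:21096051-21096300 on the - strand for Gm14851 and chr8:21025295-21025544 on the + strand for Defa21).
Defa30: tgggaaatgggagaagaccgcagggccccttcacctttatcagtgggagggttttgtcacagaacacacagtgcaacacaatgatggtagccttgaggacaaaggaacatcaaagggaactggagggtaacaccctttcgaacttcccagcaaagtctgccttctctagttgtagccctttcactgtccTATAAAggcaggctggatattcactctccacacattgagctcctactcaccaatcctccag
Gm14851: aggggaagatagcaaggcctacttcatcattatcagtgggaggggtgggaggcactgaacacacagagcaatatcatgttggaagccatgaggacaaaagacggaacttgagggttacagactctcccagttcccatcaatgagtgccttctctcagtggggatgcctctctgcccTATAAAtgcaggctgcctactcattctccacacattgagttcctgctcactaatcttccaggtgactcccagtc
Defa21: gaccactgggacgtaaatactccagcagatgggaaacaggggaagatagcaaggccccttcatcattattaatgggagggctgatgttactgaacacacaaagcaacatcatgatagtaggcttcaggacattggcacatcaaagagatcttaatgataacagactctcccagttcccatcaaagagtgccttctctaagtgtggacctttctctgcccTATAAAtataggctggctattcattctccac

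The upstream sequence of Defa22 (chr8:21162027-21162276) was 100% identical to that of Defa21. Identity, taken as 100% less the edits per 250 bases of an end-to-end alignment, was 57.6% for Defa30 with Defa21 and 67.6% with Gm14851. The stretches were set by the annotated starts, so a shift between starts counts as edits too and lowers these values. In windows from 250 bases before to 50 after the start, searched on both strands, TATAAA was found in 14 of 15 members and in 13.57% of 32544 RefSeq promoters. It began 31 bases before the start of Defa21 and Defa22, 61 before Defa30 and 74 before Gm14851. CTTTGAA and CTTTGTT were searched as letters that fit the TCF/LEF factors of the Wnt pathway. They were in 0 of 15 members against 5.15% and 5.847% of all promoters. With 15 members, 0 cannot be told apart from such low shares. Other forms were not searched, among them CTTTGAT, whose reverse complement ATCAAAG stands in the printed sequences of Defa30 and Defa21. The search therefore does not show that these promoters lack TCF/LEF sites. The E-box CANNTG was in 15 of 15 members and in 72.3% of all promoters.

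Alpha-defensin transcripts took a large and variable part of the counts in the sorted cells. They took 8.77% (Wilson 95% interval 8.73 to 8.81), 3.69% (3.66 to 3.72) and 1.34% (1.32 to 1.36) of the counts in SM6 young replicates 1 to 3, and 5.42% (5.38 to 5.46), 5.31% (5.28 to 5.35) and 24.8% (24.7 to 24.9) in SM6 old. In Lgr5-GFP the shares were 25.5% (25.5 to 25.6), 13.3% (13.2 to 13.3) and 5.96% (5.93 to 5.99) in young and 2.41% (2.39 to 2.44), 2.56% (2.53 to 2.59) and 4.08% (4.04 to 4.12) in old mice. SM6 old replicate 3 and Lgr5-GFP young replicate 1 stood far above the rest, and the intervals cover counting error only.

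The mean share was 4.60% ± 3.80 for SM6 young and 11.8% ± 11.2 for SM6 old mice (SD, n = 3). It was 14.9% ± 9.89 for young and 3.01% ± 0.921 for old Lgr5-GFP mice. The mean in SM6 was thus 2.57-fold higher in old than in young mice, but the libraries overlapped. The old mean was 5.37% without old replicate 3, and the young mean was 2.51% without young replicate 1, the 1 young library that lay above old replicates 1 and 2. In Lgr5-GFP the mean was 4.95-fold higher in young than in old mice, and every old library lay below every young one and below every SM6 old library. Without Lgr5-GFP young replicate 1 the young mean was 9.61%. Which cells these transcripts came from was not tested. Fewer Paneth cells and less RNA per Paneth cell cannot be told apart in such sorted bulk samples.

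**Figure D1:**
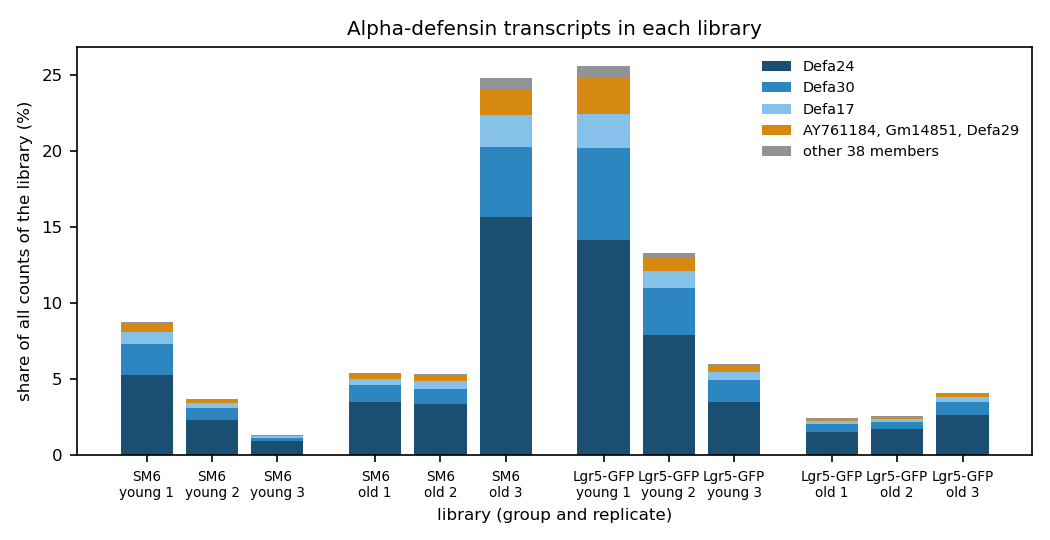
Alpha-defensin transcripts as a share of all counts (%, vertical axis) in each of the 12 libraries, stacked by gene: Defa24, Defa30, Defa17, the sum of AY761184, Gm14851 and Defa29, and the other 38 members. The bars reach 24.8% in SM6 old replicate 3 and 25.5% in Lgr5-GFP young replicate 1, and 1.34% in SM6 young replicate 3.

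Few genes took most of the alpha-defensin counts. Of 2119807 member counts over all libraries, Defa24 (ENSMUSG00000064213, chr8:21734494-21735471) took 58.8%, Defa24 and Defa30 (chr8:21134642-21135598) together 81.0%, and the 3 highest, with Defa17 (chr8:21655780-21656735), 89.7%. AY761184 (chr8:21702519-21703645) had 106897 counts and Gm14851 (chr8:21095074-21096050) 51386. Then came Defa3 with 22211, Defa29 (ENSMUSG00000074437) with 8193, Defa21 with 7903, Defa22 with 7496, Defa26 with 6448, Gm15292 with 4284 and Defa35 with 655 counts. Lgr5-GFP young replicate 1 alone held 974333 of the member counts, so it weighs most in this pooled order. In SM6 old replicate 3, for instance, Defa21 had 2602 counts against 1624 for Defa29. Reads were counted near the 3′ end and were not divided by length.

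The remaining members were rare. Of the 44 members, 30 had at least 1 count in some library, 27 passed the filter on low counts and were tested, and 3 had counts but were not tested (Defa5, Defa-ps9 and Defa2). The 14 members at 0 in every library were 5 coding genes and 9 pseudogenes, and a count of 0 allows 0.786 to 3.09 CPM depending on the library. For 6 of these 14 (Defa20, Defa32, Defa33, Defa37, Defa-ps17 and Defa-ps8), no 72-base window was unique to the gene, so a read within these transcripts fits more than 1 gene. The pseudogene annotations together took 0.00758% to 0.0481% of the member counts, and 7 of them were tested, with 300 counts in all for Defa-ps6, the most counted. Between 17 and 28 members were detected in a library.

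In CPM, the level of Defa24 was 52580.3, 22101 and 8149 in SM6 young and 34199.5, 33419 and 195316 in SM6 old. It was 169901, 81606 and 33125 in Lgr5-GFP young and 13754, 16041 and 24496 in Lgr5-GFP old. The 2 SM6 groups overlapped through the first young library, whereas the Lgr5-GFP old libraries were all below the young ones. Defa30 ran from 2220.05 CPM in SM6 young replicate 3 to 72683 in Lgr5-GFP young replicate 1.

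For AY761184, the most counted member of the longer reading frame, SM6 young had 3552, 1381 and 435 CPM and SM6 old 2079, 2235 and 14277. The Lgr5-GFP levels were 18343, 6172 and 2305 CPM in young and 862, 866 and 1384 in old mice. As for Defa24, SM6 old replicate 3 and Lgr5-GFP young replicate 1 were the highest and SM6 young replicate 3 was the lowest. For Defa29, a lower member of the same kind, SM6 young had 155, 98.7 and 25.3 CPM, SM6 old 156, 151 and 1297, Lgr5-GFP young 1521, 347 and 123, and Lgr5-GFP old 27.99, 65.9 and 59.8. The SM6 groups of both genes overlapped, and the Lgr5-GFP groups did not.

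Defa21 departed from this order. Its level was 66.1, 119.7 and 78.0 CPM in SM6 young and 129, 295 and 2079 in SM6 old, so that every old library was above every young one. In Lgr5-GFP it was 1145, 181 and 64.6 CPM in young and 39.3, 117 and 80.0 in old mice, and these groups overlapped. Its near-copy Defa22 had 74.6, 115 and 65.8 CPM in SM6 young, 111, 301 and 1817 in SM6 old, 1164, 136 and 48.4 in Lgr5-GFP young and 29.3, 109 and 78.1 in Lgr5-GFP old. The ages overlapped in both isolations for Defa22, and SM6 young replicate 3, the lowest library for Defa24 and Defa30, was the lowest for neither gene.

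**Figure D2:**
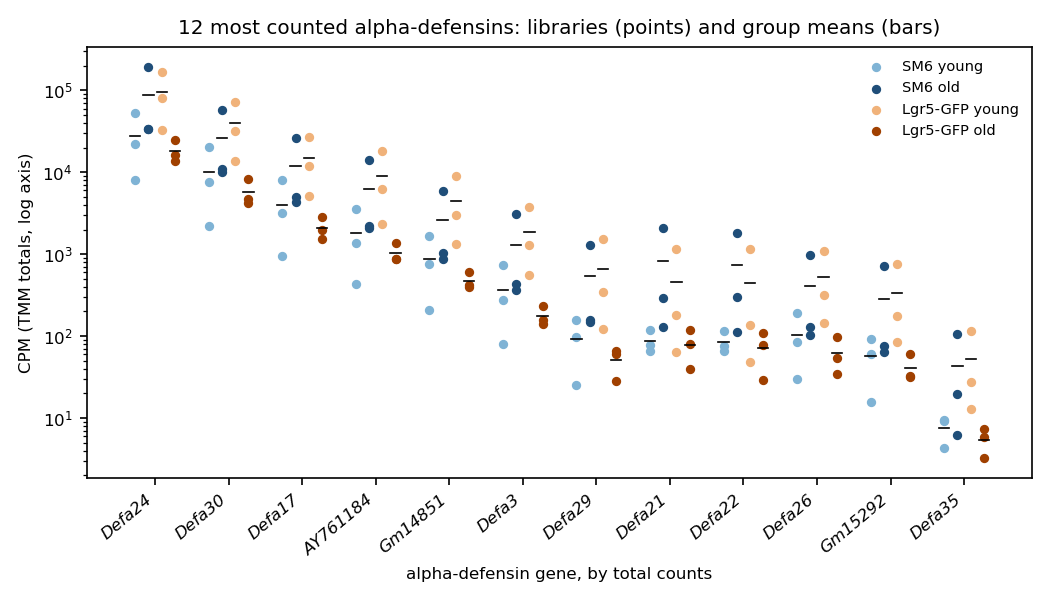
Level of the 12 most counted alpha-defensins in CPM (log axis), with a point for each library, colours for the 4 groups and bars at the group means. For Defa24 the Lgr5-GFP old points (13754 to 24496) lie below the Lgr5-GFP young points (33125 to 169901), while the 2 SM6 groups overlap.

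Across the 12 libraries most of the highly counted members moved together. The summed level ran from 12275 to 309710 CPM, a 25.2-fold range. On log2 scales, the correlation of each of the 12 most counted members with the sum of the others was between 0.912 and 0.998, apart from Defa21 (0.796) and Defa22 (0.791). These are descriptions over libraries that share their scaling, and group differences are part of them. The slope of a member's log2 level on that of the others was 0.90 for Defa24 and 1.26 for Defa29, so the lower member spread further than the main one (60.1-fold against 24.0-fold between the highest and lowest library).

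The share that each of the 12 most counted members took of the family varied less than the summed level, though not evenly. The count ratio of Defa24 to AY761184 ran from 9.26 to 18.7, to Defa3 from 44.9 to 105 and to Defa29 from 112 to 491. Defa24, Defa30 and Defa17, which make up most of the sum, together held 87.8% to 93.1% of the member counts in every library. AY761184, Gm14851 and Defa29 together held 5.39% to 9.42%, with the highest share, 9.42%, in Lgr5-GFP young replicate 1. Defa21 and Defa22 together varied the most in relative terms, from 0.160% in SM6 young replicate 1 to 1.26% in SM6 old replicate 3, with means of 0.663% ± 0.506 and 0.942% ± 0.433 for young and old SM6 mice and 0.394% ± 0.311 and 0.560% ± 0.346 for young and old Lgr5-GFP mice (SD, n = 3). The count ratio of Defa21 to Defa22 stayed between 0.886 and 1.34.

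To ask whether a member took another share at an equal summed level, the log2 summed alpha-defensin CPM of each library was added to the model. The sum includes the member itself, so for Defa24, Defa30 and Defa17, which hold 89.7% of it, a value near 0 is largely fixed by the fit. By age, 0 of 27 members were called by edgeR's quasi-likelihood test at a Benjamini-Hochberg adjusted p under 0.05, where 2.75% of all tested genes were called. At an unadjusted p under 0.05 there were 2, Gm14851 with a log2 difference of -0.26 and Defa3 with -0.24, and DESeq2 and limma voom also called 0. The unadjusted share over all genes was 12.5%. The estimates for Defa21 and Defa22 were 0.58 (SE 0.34) and 0.62 (SE 0.36), old minus young. By isolation, 0 of 27 were called (0.471% of all genes), 0 had an unadjusted p under 0.05 (7.78% of all genes) and the other tools called 0. Defa21 was at -0.67 (SE 0.35) and Defa22 at -0.71 (SE 0.36), Lgr5-GFP minus SM6.

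**Figure D3:**
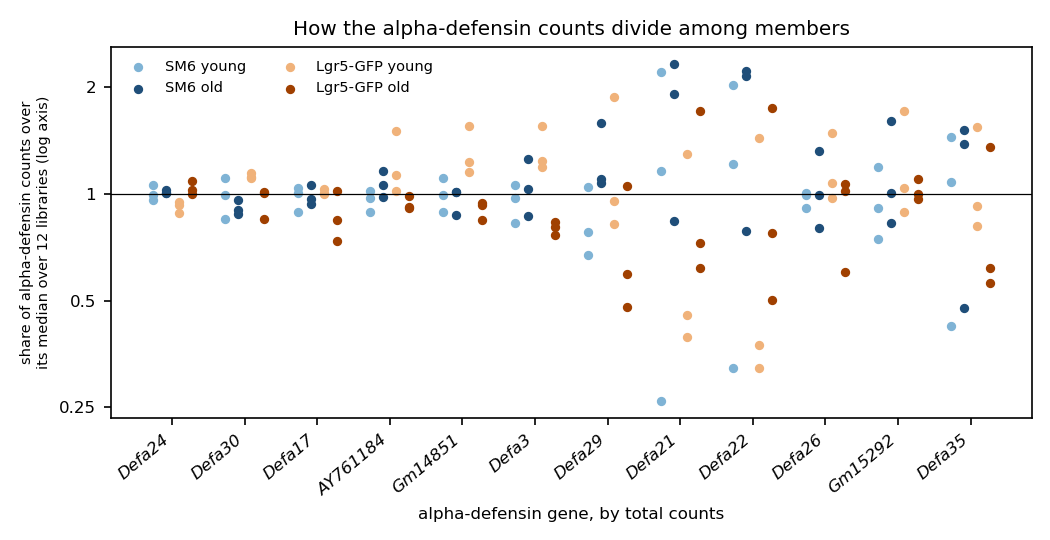
Share of the alpha-defensin counts taken by each of the 12 most counted members, divided by that member's median share over the 12 libraries (log axis), with a point for each library in the colours of the 4 groups. Points of Defa24, Defa30 and Defa17 sit close to 1, whereas those of Defa21 and Defa22 spread widest, their joint share running from 0.160% to 1.26%.

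In SM6, the members were higher in old mice in estimate, but few passed the test. Defa21 rose by 3.24 on the log2 scale (SE 0.80, adjusted p = 0.0285, edgeR quasi-likelihood test with Benjamini-Hochberg adjustment over 13368 genes) and Defa22 by 3.12 (SE 0.84, adjusted p = 0.0471). These 2 of 27 tested members were called, both higher, where 2.42% of all tested genes were called and 0.643% were called higher. DESeq2 and limma voom each called 0. At an unadjusted p under 0.05 there were 16 members, against 13.1% of all genes. The main member Defa24 had 1.67 (SE 0.59, adjusted p = 0.167) and AY761184 1.79 (SE 0.67, adjusted p = 0.202), neither of which passed. All 27 estimates were above 0, as were 49.1% over all genes, and their median was 1.85 against -0.0070 over all genes. A member could pass the filter through 1 high library, so the sign of a rare member can follow from that library. With at least 10 counts in 3 libraries required, 17 members were tested and their median was 1.80.

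Of the 27 members, 2 had SM6 libraries that did not overlap between the ages, Defa21 and the pseudogene Defa-ps18, against 17.5% of all tested genes. Without SM6 old replicate 3 the median log2 change was 0.29 and 0 members were called. Without SM6 young replicate 2 or 3, 0 members were called as well. Without SM6 young replicate 1, 2 were called, but these were Defa24 and Defa17, and Defa21 (adjusted p = 0.106) and Defa22 (adjusted p = 0.141) no longer passed. Leaving out SM6 old replicate 2, Lgr5-GFP old replicate 1 or Lgr5-GFP old replicate 3 gave 1 call, and leaving out Lgr5-GFP young replicate 1 gave 5.

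In Lgr5-GFP, the members were lower in old mice in estimate, and some passed the test. The 5 members called lower were Gm14851 (log2 change -3.23, SE 0.68, adjusted p = 0.0308), Defa3 (-3.42, SE 0.73, adjusted p = 0.0326), Defa29 (-3.72, SE 0.80, adjusted p = 0.0326), AY761184 (-3.11, SE 0.70, adjusted p = 0.0433) and Defa17 (-2.80, SE 0.64, adjusted p = 0.0449), by the same test. The 3 members of the longer reading frame shown above were among them, and 0 members were called higher. Over all genes 0.471% were called and 0.284% were called lower. Defa30 had -2.79 (SE 0.65, adjusted p = 0.05001) and Defa24 -2.39 (SE 0.60, adjusted p = 0.0800), which did not pass. DESeq2 called 1 member, limma voom 5, and edgeR with a filter of at least 10 counts in 3 libraries 2. The 23 members with an unadjusted p under 0.05 compare with 9.79% of all genes.

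No estimate of the 27 was above 0 in Lgr5-GFP, where 46.3% of all genes were, and the median was -3.07 against -0.034 over all genes. For 17 of the 27 members the old libraries did not overlap the young ones, against 14.6% of all genes. Both tallies include rare members that passed the filter through 1 high library, from which their sign can follow. Under the filter of at least 10 counts in 3 libraries, 17 members were tested and their median was -3.10. Without Lgr5-GFP young replicate 1, or without any 1 of the 3 old libraries, 0 members were called. Leaving out 1 of the other libraries gave between 3 (SM6 young replicate 2 or Lgr5-GFP young replicate 2) and 15 calls (SM6 old replicate 3 or Lgr5-GFP young replicate 3). The median of the 27 ran from -3.53 to -1.99 over all libraries left out in turn.

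**Figure D4:**
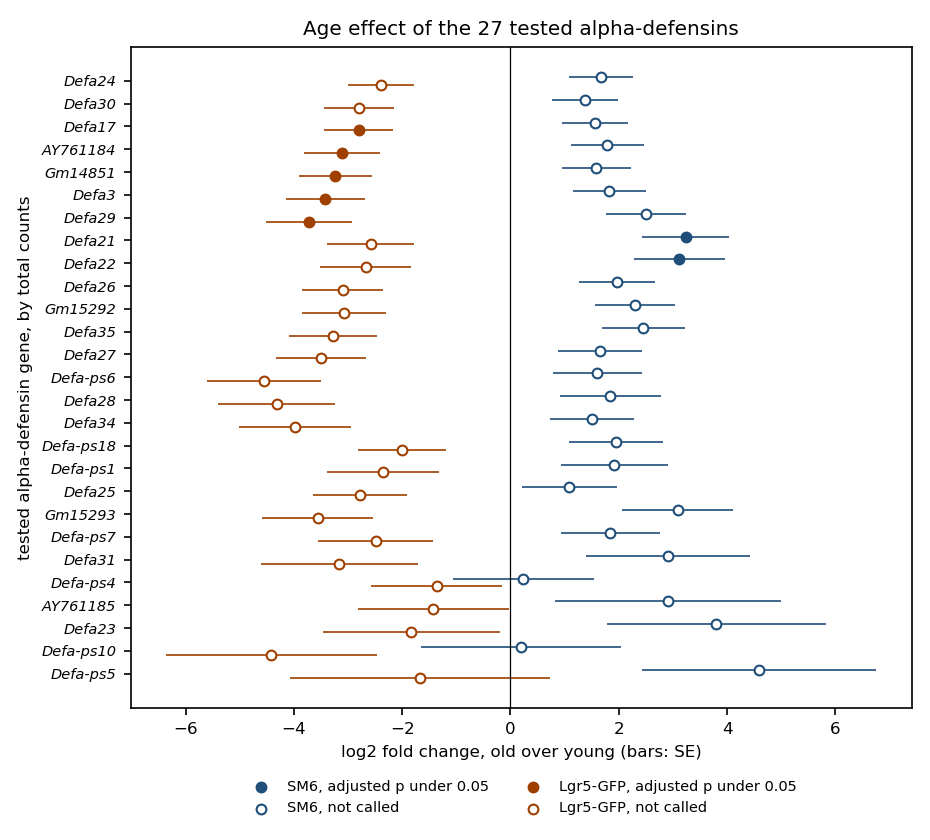
Log2 fold change of old over young (horizontal axis, bars for SE) for the 27 tested alpha-defensins in SM6 and Lgr5-GFP, with filled points at an adjusted p under 0.05. All SM6 points are above 0 with a median of 1.85 and 2 are filled (Defa21, Defa22), and all Lgr5-GFP points are below 0 with a median of -3.07 and 5 are filled.

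The age effects of the 2 isolations differed. The difference, Lgr5-GFP minus SM6, was called for 16 of 27 members, all lower, where 0.658% of all genes were called and 0.606% were called lower. It was called for each of the 12 most counted members, for which it ran from -6.23 to -4.06 with adjusted p between 0.00620 and 0.0226 (edgeR quasi-likelihood test, interaction term). It was largest among these for Defa29 (-6.23, SE 1.09, adjusted p = 0.00620) and smallest for Defa24 (-4.06, SE 0.84, adjusted p = 0.0176). DESeq2 called 9 members and limma voom 7, with a median of -3.81 in voom. Beyond these 12, it was called for Defa27, Defa28, Gm15293 and the pseudogene Defa-ps6, and the median over the 27 was -5.15 against 0.0035 over all genes. At an unadjusted p under 0.05 there were 23 members (9.43% of all genes), and 0 of 27 estimates were above 0 (50.3% of all genes). Rare members that passed the filter through 1 high library are among the 27, and their sign can follow from it. Requiring at least 10 counts in 3 libraries left 17 members, of which 14 were called, with a median of -5.24.

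The size of this difference rested in part on the 2 libraries with the highest share. Without SM6 old replicate 3 and Lgr5-GFP young replicate 1, it was called for 1 member and its median was -2.26. Without the first of them alone it was called for 6, and without the second alone for 3. Leaving out Lgr5-GFP old replicate 1, SM6 young replicate 2 or Lgr5-GFP old replicate 2 gave 6, 7 and 8 calls.

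Averaged over the 2 isolations, the age effect was called for 0 of 27 members (2.66% of all genes), and 0 had an unadjusted p under 0.05 in edgeR, against 12.8% of all genes. DESeq2 and limma voom also called 0. The median was -0.56, and Defa24 had -0.36 (SE 0.41). Without SM6 old replicate 3, 6 members were called.

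Lgr5-GFP was also compared with SM6 at each age, a comparison of strains and possibly of sorts, with the same libraries as above. At 2 months, 0 of 27 members were called (0.0898% of all genes) by edgeR, DESeq2 or limma voom, although 22 had an unadjusted p under 0.05 against 7.47% of all genes. All 27 estimates were higher in Lgr5-GFP (49% of all genes), with a median of 2.36 against -0.0081 over all genes, and Defa24 had 1.78 (SE 0.59, adjusted p = 0.428). These again include rare members that passed the filter through 1 high library. The median was 2.35 over the 17 members tested with at least 10 counts in 3 libraries. The libraries of 3 members did not overlap (Defa35, Defa28 and Gm15293), against 13.7% of all genes. Without SM6 old replicate 3 there were 6 calls, and without Lgr5-GFP young replicate 3 there were 4.

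At 22 months the estimates had the opposite sign. Defa29 was lower in Lgr5-GFP, with a log2 difference of -3.40 (SE 0.80, adjusted p = 0.0410), the 1 member called, where 0.718% of all genes were called and 0.673% were called lower. Defa21 had -3.41 (SE 0.82, adjusted p = 0.0514) and Defa24 -2.28 (SE 0.60, adjusted p = 0.0902). The median of the 27 was -2.66 against 0 over all genes, 1 estimate was above 0 (49.9% of all genes), 18 had an unadjusted p under 0.05 (9.4% of all genes), and for 16 the libraries did not overlap (13.5% of all genes). DESeq2, limma voom and edgeR with a filter of at least 10 counts in 3 libraries each called 0 members. That filter left 17 members, with a median of -2.80. The call was also lost without SM6 young replicate 2, SM6 old replicate 3 or any 1 of the Lgr5-GFP old libraries, leaving out any 1 of the other libraries gave 2 to 13 calls, and without both libraries of highest share the median was -1.14.

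Other transcripts typical of Paneth cells moved with the alpha-defensins. A list of 6 was taken: Lyz1 (lysozyme), Mmp7 (matrilysin), Ang4 (an antimicrobial ribonuclease), Itln1 (intelectin, a lectin that binds microbial sugars), Mptx2 (a pentraxin) and Habp2. Their summed level ran from 1489 to 49686 CPM, in a correlation of 0.981 with the summed alpha-defensins on log2 scales (n = 12). In SM6 all 6 were higher in old mice in estimate, with a median log2 change of 2.17 and 0 called. In Lgr5-GFP all 6 were lower, with a median of -2.83, and Mmp7 (-2.61, adjusted p = 0.0326) and Mptx2 (-4.78, adjusted p = 0.0106) were called. The difference of the age effects was called for 5 of 6, with a median of -5.29.

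Relative to these markers, the alpha-defensins were lowest in the libraries where both were highest. The alpha-defensin counts were 6.23 times the summed counts of the 6 genes in SM6 old replicate 3 and also 6.23 times in Lgr5-GFP young replicate 1, and between 8.24 and 12.5 times in the other 10 libraries. With the log2 summed level of the 6 genes as a term in the model, 0 members were called in SM6, in Lgr5-GFP and for the difference of the age effects. The median log2 values were then -0.10, -0.50 and -0.45. A term so close to the summed members takes up most of their change whatever its source.

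**Figure D5:**
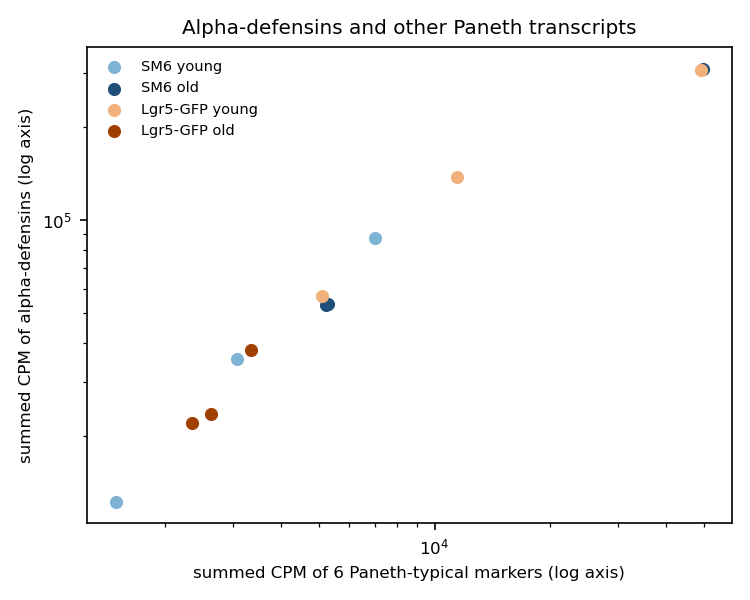
Summed CPM of the alpha-defensins (vertical, log axis) against the summed CPM of 6 other Paneth-typical genes (horizontal, log axis), with a point for each of the 12 libraries coloured by group. The points lie along a line from 12275 to 309710 CPM of alpha-defensins, with SM6 old replicate 3 and Lgr5-GFP young replicate 1 almost on top of each other at the upper end.

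Among non-member genes with a mean of at least 10 CPM, the 10 whose log2 level was most like the summed alpha-defensins over the 12 libraries were Gm35164 (r = 0.990), a noncoding RNA on chromosome 14, Clps (0.984), the colipase, Itln1 (0.983), Lyz1 (0.969), Ang4 (0.963), Mmp7 (0.960), Pla2g2a (0.959), a secreted phospholipase that attacks bacterial membranes, Pnliprp2 (0.931), Mptx2 (0.930) and Rnase1 (0.914). Lgr5 (0.049), Olfm4 (-0.091), Sox9 (-0.114), a transcription factor of stem and Paneth cells, and the goblet cell mucin Muc2 (0.466) were not close. The libraries are the same 12, so these values are descriptions.

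A wider list of 18 secreted Paneth products had 3 genes called higher in SM6 old, Guca2b, Spink4 and Tff3. The last 2 are also goblet cell genes, and none of the 3 is in the list of 6 above. In Lgr5-GFP old, 5 of the 18 were called lower (Guca2b, Mmp7, Mptx2, Reg3b and Reg3g). Of 24 tested genes of Paneth cell fate and niche function, 3 were called in SM6, the secretory factors Atoh1 and Xbp1 higher and Sox9 lower by 1.01 on the log2 scale, and 0 in Lgr5-GFP. Beta-defensins, the epithelial relatives of the family, had 43 genes in the table, of which 38 were at 0 in every library and 1 was tested, with 0 calls in either isolation.

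Markers of other cell types moved with age in the same libraries. Of 10 goblet cell genes, 5 rose in SM6 (Muc2 by 1.33 on the log2 scale, adjusted p = 0.0160), and their summed level was 5954 to 9189 CPM in young and 14503 to 18295 in old mice. In Lgr5-GFP this sum was 5588 to 11499.6 in young and 3390.1 to 6047 in old mice, with 0 called. Of 12 enteroendocrine genes, 3 rose in SM6 and 0 were called in Lgr5-GFP. Their summed level was 757 to 1484 CPM in SM6 young and 1092 to 2665 in SM6 old, and 136 to 258 in Lgr5-GFP young and 78.3 to 183 in Lgr5-GFP old, so the 2 isolations did not overlap at either age. Of 12 enterocyte genes, 4 rose in SM6 and 3 (Apoa1, Apoa4 and Lct) fell in Lgr5-GFP. The summed enterocyte list nevertheless ran from 1811 to 3340.3 CPM in Lgr5-GFP young and from 2349 to 12985 in Lgr5-GFP old, and from 2123 to 2334 in SM6 young and 2153 to 9565 in SM6 old.

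Of 15 stem cell genes, 2 fell in SM6, Olfm4 by 0.84 on the log2 scale (adjusted p = 0.00342) and Znrf3, and 0 were called in Lgr5-GFP. Lgr5 itself had -0.39 and -0.15. The summed stem cell list was 13352 to 17093 CPM in SM6 young and 8110.2 to 9172 in SM6 old, and 11932 to 14807 in Lgr5-GFP young and 12562 to 14859 in Lgr5-GFP old. Tuft cell genes summed to 40.3 CPM at most in SM6 old and 63.2 at most in Lgr5-GFP young, with 0 of 7 called in either isolation. Immune genes summed to 25.2 to 72.2 CPM in SM6 young, 129 to 246 in SM6 old, 78.1 to 666 in Lgr5-GFP young and 97.5 to 136 in Lgr5-GFP old, with 3 of 10 at 0 throughout and Cd74 called higher in SM6 old, and stromal genes to at most 5.16 CPM in any library. The part of these shifts in the alpha-defensin results was not tested.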

How the data were processed

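The authors aligned reads to GRCm38 with STAR 2.4.2a and counted them over exons with featureCounts (GENCODE vM15). The deposited values are unscaled counts per gene, and all 12 columns were used. Reads carried molecular identifiers, and whether these were collapsed is not given in the sources used here. Positions and transcripts came from GENCODE vM21 on the same build.

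Genes with more than 5 reads and at least 1 CPM in at least 1 library were kept (13368). Counts were fitted with edgeR 4.0.16 in R 4.3.3 with TMM-scaled totals of these genes, 1 mean per group and all 12 libraries, and a quasi-likelihood test, two-sided, with Benjamini-Hochberg adjustment over 13368 genes. The age effect in SM6 was tried on simulated counts with the same dispersion for every gene, and the other comparisons were not simulated. Of 200 changed genes, 43.5% were recovered at 2-fold, 98.5% at 4-fold and 100% at 16-fold. Unchanged genes made up 1.14%, 6.64% and 3.85% of the calls. Alternatives used DESeq2 1.42.0, limma 3.58.1, other filters, scalings and library sets. Identity was computed with edlib 1.3.9.post1, figures with matplotlib 3.10.9.

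The members, lists and genes named were chosen with earlier results of these data known. Named were the 12 members of highest mean CPM, members called in a comparison (the 8 of smallest adjusted p where more), fixed markers and the 10 most similar non-members; others were named after their values were seen.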

Additional observations from a re-analysis of the deposited data

Results flagged for a closer look

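The age effect differed between Lgr5-GFP and SM6 for each of the 12 most counted members, by the interaction term of the edgeR model. On the log2 scale, Lgr5-GFP minus SM6, the difference was -4.06 for Defa24, -4.17 for Defa30, -4.36 for Defa17, -4.90 for AY761184, -4.82 for Gm14851, -5.24 for Defa3, -5.82 for Defa21, -5.79 for Defa22, -6.23 for Defa29, -5.07 for Defa26, -5.36 for Gm15292 and -5.73 for Defa35. The members move together across libraries, so these are not 12 independent results, and 1 library in each of 2 groups carries a large part of each value.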

How the results depend on the processing

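Calls out of the tested members depended on the processing more than directions did, and the cause was not tested. In the order SM6, Lgr5-GFP and 22 months, the calls of 2, 5 and 1 became 5, 14 and 9 with library totals alone, 17, 20 and 17 with no filter, 1, 2 and 0 with at least 10 counts in 3 libraries, and 4, 13 and 14 when fitted on only the 6 libraries compared. DESeq2 gave 0, 1 and 0, and limma voom 0 in SM6 and 0 at 22 months. For the difference of age effects, the 16 calls became 9 with DESeq2 and 7 with voom (median -3.81). With no filter there were 9 calls for the average, 18 at 2 months and 2 in each test of make-up. Over all genes, calls without a filter were 603 against 323 in SM6 and 274 against 63 in Lgr5-GFP. Totals over all genes before scaling, an alternative chosen after seeing the data, gave 7 calls in Lgr5-GFP, and the choice of totals was made with both counts known.

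With the Paneth marker term, calls were 0 in SM6, 0 in Lgr5-GFP, 1 for the average, 0 for the difference and 0 at 22 months, with medians of -0.10, -0.50, -0.45 for the difference, 0.22 at 2 months and -0.26 at 22 months. Signs then turned in SM6 for Defa24 (-0.014), Defa30 (-0.23), Defa17 (-0.084), AY761184 (-0.10), Gm14851 (-0.24), Defa3 (-0.17), Defa26 (-0.22) and Gm15292 (-0.15), in Lgr5-GFP for Defa21 (0.64) and Defa22 (0.83), for the difference in Defa21 (0.19), Defa22 (0.48) and Gm15292 (0.081), at 2 months for Defa21 (-0.76) and Defa22 (-0.99), and at 22 months for Gm15292 (0.12).

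Without both libraries of highest share, an alternative chosen after seeing the data, calls were 1 in SM6 (median 0.29), 8 in Lgr5-GFP, 1 for the difference (-2.26) and 0 at 22 months (-1.14). Leaving out each library in turn gave 0 to 5 calls in SM6 (median 0.29 to 2.62), 0 to 15 in Lgr5-GFP (-3.53 to -1.99), 0 to 6 for the average (-1.36 to 0.026), 3 to 17 for the difference (-5.76 to -3.56), 0 to 6 at 2 months (1.19 to 3.14), 0 to 13 at 22 months (-2.99 to -1.13) and 0 to 1 by age at equal summed level. Group mean shares ran from 2.51 to 6.23% in SM6 young, 5.37 to 15.1% in SM6 old, 9.61 to 19.4% in Lgr5-GFP young and 2.48 to 3.32% in Lgr5-GFP old. Without Defa24 the Lgr5-GFP old share was 1.06%.

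Average age effects turned sign in Defa21 (-0.098) and Defa22 (-0.13) with voom, and ran on both sides of 0 with 1 library left out in Defa24 (-1.04 to 0.072), Defa21 (-0.65 to 1.31), Defa22 (-0.69 to 1.40), Defa29 (-1.50 to 0.16), Defa26 (-1.47 to 0.026), Gm15292 (-1.39 to 0.33) and Defa35 (-1.25 to 0.35). At equal summed level by age, Defa29 turned with DESeq2 (-0.0099), voom (-0.066), no filter (-0.0066) and without both libraries (-0.012), as did Gm15292 (-0.045) and Defa35 (-0.21) without both. With 1 left out the ranges were -0.18 to 0.14 for Defa29, -0.043 to 0.27 for Gm15292, -0.19 to 0.36 for Defa35 and -0.15 to 0.027 for Defa26. By isolation, Defa35 turned with DESeq2 (-0.011) and without both (-0.031), and with 1 left out Defa35 ran from -0.30 to 0.28, Defa26 from -0.050 to 0.15 and Gm15292 from -0.087 to 0.26. Of the remaining values for named members under alternatives, 1779 kept direction and side of the threshold, 167 came to pass it and 132 no longer passed it.

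Replicate numbers did not pair the samples: same-numbered libraries had correlations of -0.072 to 0.046 in their deviations from the group means, other pairs -0.107 to 0.138. With the replicate block, calls were 0 in SM6, 2 in Lgr5-GFP, 17 for the difference and 0 at 22 months. In the main fit, p-values rest on the spread between mice within groups, estimated over all 4 groups of 3 together.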
